A study of Mus musculus with 3 samples.

Results

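The 8 genes described here encode the enzymes that make prostanoids and the receptors that read prostaglandin E2: the cyclooxygenases Ptgs1 and Ptgs2, the prostacyclin synthase Ptgis, the prostaglandin D synthase Ptgds, the microsomal prostaglandin E synthase Ptges, and the EP receptors Ptger1, Ptger3 and Ptger4. They were chosen by name, and their UMIs (unique molecular identifiers, each standing for 1 captured RNA molecule) were read out of 22535 genes in the count tables. Of 30008 barcodes, 26760 were kept as cells because they held at least 200 genes and at most 50% mitochondrial UMIs. All 8 genes had UMIs in the kept cells of each library, from 111 UMIs for Ptger1 to 32371 for Ptger4.

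The cells came from the kidney cortex of WT1CreERT2; Rosa26-tdT fl/+ mice, in which tamoxifen lets Cre driven from the Wt1 gene switch on the red protein tdTomato (tdT) in Wt1-expressing cells, so that all groups carry the same alleles. The Sham library held tdT+ and tdT- cells after sham surgery, IRI24h-TDN held such a mixture at 24 h after ischemia-reperfusion injury (IRI) of both kidneys, done as a severe form, and the third library, IRI24h-TD, came from tdT+ cells sorted without tdT- cells, also 24 h after IRI. Cells of several kidneys entered each group by the study's methods, and each condition has 1 library on the BD Rhapsody platform, so conditions are compared without replicates and no p-value is given. Since tdT+ cells were enriched, the share of each cell type in a library is not its share in the kidney. Between Sham and the IRI libraries, the sort cannot be told apart from injury or cell capture in these shares. Kept cells numbered 8047 (Sham), 9024 (IRI24h-TDN) and 9689 (IRI24h-TD), with a median of 7746, 9151 and 9529 UMIs, and 270 kept barcodes were found in more than 1 library.

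Prostanoids are local lipid signals. Phospholipases release arachidonic acid from membranes, cyclooxygenases turn it into prostaglandin H2, and terminal synthases turn that into prostaglandin E2, D2, F2α, prostacyclin or thromboxane, each with its own G protein-coupled receptors. In the kidney the pathway is known for its part in vascular tone, renin release, and salt and water handling by the distal nephron and collecting duct. Ptgs1 is usually described as the constitutive cyclooxygenase and Ptgs2 as the inducible one.

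The regions around the start sites of these isoenzymes are shown because the UMIs of the genes lay in different cell classes below. Each runs 5′ to 3′ on the plus strand of GRCm38.p6 (RefSeq), from 250 bases before the annotated start to 30 bases after it, and capitals mark matches to 5 short motifs searched on both strands, the TATA box TATAAA, the E box CACGTG, the CRE core TGACG, the CCAAT box and the GC box GGGCGG. Of the 8 genes, 6 had an entry in the promoter table.
Ptgs1, chr2:36230176-36230455: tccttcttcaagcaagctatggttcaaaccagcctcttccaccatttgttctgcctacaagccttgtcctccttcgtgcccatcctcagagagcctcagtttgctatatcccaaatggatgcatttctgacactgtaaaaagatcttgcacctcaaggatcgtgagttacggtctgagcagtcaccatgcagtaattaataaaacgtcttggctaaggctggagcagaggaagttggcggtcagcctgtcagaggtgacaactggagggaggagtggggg
Ptgs2, chr1:150099781-150100060: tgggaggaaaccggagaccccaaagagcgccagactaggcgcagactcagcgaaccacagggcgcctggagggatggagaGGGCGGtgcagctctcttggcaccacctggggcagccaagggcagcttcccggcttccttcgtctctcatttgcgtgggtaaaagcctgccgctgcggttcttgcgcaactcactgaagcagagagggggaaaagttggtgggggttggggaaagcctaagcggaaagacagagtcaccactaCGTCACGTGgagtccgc
The Ptgs1 window was 49.6% G and C and held no match. The Ptgs2 window was 61.4% G and C, with a GGGCGG at 170 bases before the start and, just after the start, a reverse TGACG that overlaps a CACGTG. Of 32851 promoter windows of this length in the table, 34.7% held GGGCGG, 19.9% held TGACG, 6.79% held CACGTG, 36.1% held CCAAT and 13.1% held TATAAA. Each match describes letters only, and whether it is a working site was not tested.

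In mm10 with GENCODE M21, Ptgs1 lies at chr2:36230426-36252272, Ptgs2 at chr1:150100031-150108227, Ptgis at chr2:167191805-167240604, Ptgds at chr2:25466709-25470046, Ptges at chr2:30889471-30929863, Ptger1 at chr8:83666678-83672753, Ptger3 at chr3:157566892-157645888 and Ptger4 at chr15:5206661-5244187. Ptger4 overlaps Ttc33 on the other strand. Whether the counting used the strand is not given in the sources used here, so reads of overlapping genes may not be told apart.

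Cells fell into 27 clusters, and 13 cell classes were named from marker lists, with 332 cells left unnamed. The podocyte-like class was the largest with 19430 cells, followed by parietal epithelial cell (PEC)-like with 1388, proximal tubule epithelial cell (PTEC)-like with 1254 and monocytic-like with 1110. The distal nephron was held by ascending limb-like (597 cells), distal convoluted tubule-like (483), connecting tubule and principal-like (573) and intercalated-like (536) cells. Endothelial-like (278), fibroblast-like (44) and neutrophil-like (33) cells were fewer. A pair of contractile clusters is called by its leading genes here. The Ren1/Acta2-led cluster (462 cells) scored highest for smooth muscle and renin markers, with Myh11 in 93.5% and Ren1 in 35.3% of its cells, but it also held Gata3 in 57.6% and Itga8 in 72.7%, which define mesangial cells. The Rgs5/Notch3-led cluster (240 cells) scored highest for the mesangial list, yet it had Gata3 in 6.25% of its cells, Itga8 in 48 of 240 and Myh11 in 99.6%, so the mesangial name was not used.

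Levels below are CPM, the UMIs of the gene per 1000000 UMIs of a class, over all 3 libraries and with the exact 95% Poisson interval, and shares of cells carry no weight for depth unless stated. Intervals cover counting error only. Ptgs1 and Ptges were highest in connecting tubule and principal-like cells, Ptgis in Ren1/Acta2-led contractile cells, Ptgds in PEC-like cells, Ptger3 in intercalated-like and ascending limb-like cells, and Ptger4 in monocytic-like and podocyte-like cells. Taken against all other cells, 15 of 61 pairs of a member and a class with at least 10 UMIs were at least 4-fold higher in the class. The same rule was met by 8.82% of all genes in connecting tubule and principal-like cells, 8.16% in intercalated-like, 7.26% in ascending limb-like, 10.8% in PEC-like, 11.5% in endothelial-like, 10.9% in fibroblast-like, 13.2% in monocytic-like, 9.35% in Ren1/Acta2-led contractile and 34.9% in neutrophil-like cells. No member met it in podocyte-like (8 pairs), PTEC-like (6), distal convoluted tubule-like (5) or Rgs5/Notch3-led contractile cells (3). The share of all genes is not given for these classes. Of the other pathway genes, 30 of 159 pairs met it, some of them in these classes too.

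**Figure D1:**
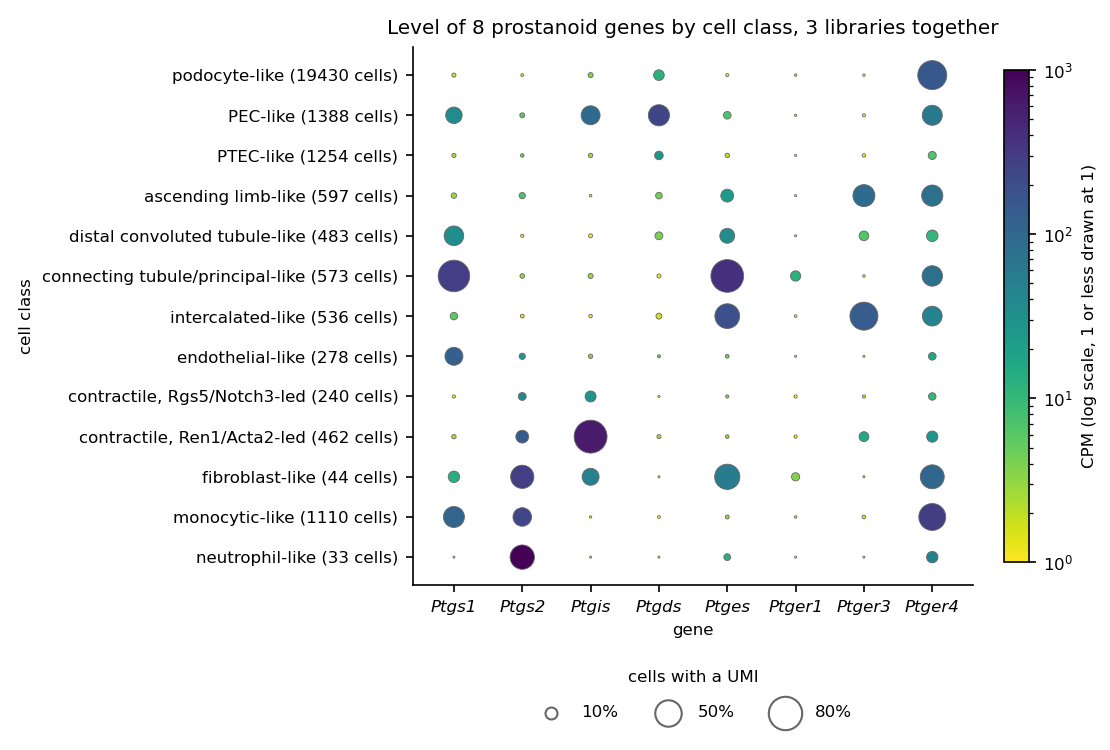
Level of each of the 8 genes (x axis) in each of the 13 cell classes (y axis) over the 3 libraries, with the colour of a dot giving CPM on a log scale and its area the percentage of cells with a UMI. Ptgs1 and Ptges share their highest class, at 286 and 384 CPM, while Ptgis is highest at 613 CPM in Ren1/Acta2-led contractile cells and Ptgds at 243 CPM in PEC-like cells.

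Ptgs1 reached 286 CPM (271 to 301) in connecting tubule and principal-like cells, where 71.4% of cells had a UMI, and 33.6-fold its level in the remaining cells. Endothelial-like cells followed at 124 CPM (102 to 149) and monocytic-like cells at 107 CPM (99.2 to 115), and these neighbours did not differ beyond their intervals. PEC-like cells had 35.4 CPM (32.2 to 38.8) and distal convoluted tubule-like cells 33.5 CPM (29.3 to 38.0), again with overlapping intervals. Podocyte-like cells had 1.66 CPM, and in Ren1/Acta2-led contractile cells 1.08% of cells had a UMI. In cells thinned to 2400 UMIs the share in connecting tubule and principal-like cells was 44.4%, still the highest of the classes given.

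Ptgs2 took 52.3% of its UMIs from monocytic-like cells, at 232 CPM (221 to 244). Its highest level, 970 CPM (768 to 1209), came from 33 neutrophil-like cells with 79 UMIs, of which 36.7% lay in 1 cell. Fibroblast-like cells had 283 CPM (240 to 331), which overlapped the monocytic-like interval, with all 156 UMIs from 17 cells of IRI24h-TDN, and Ren1/Acta2-led contractile cells had 146 CPM (132 to 162). The Rgs5/Notch3-led cluster had 40.1 CPM (29.6 to 53.1) and endothelial-like cells 25.9 CPM (16.4 to 38.9), with overlapping intervals. In ascending limb-like cells Ptgs2 had 40 UMIs in 15 of 597 cells. Of these UMIs 75.0% lay in the 35 cells with Nos1 and 77.5% in the 14 cells with Pappa2, which are markers of the macula densa, the sensor of tubular salt. Podocyte-like cells had 1.17 CPM, and their main cluster of 18588 cells had 0.145 CPM (0.0940 to 0.215).

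Ptges, the terminal synthase of prostaglandin E2, shared its highest class with Ptgs1. It reached 384 CPM (367 to 401) and 76.8% of connecting tubule and principal-like cells, or 44.9-fold the other cells. Both genes were found together in 344 of these 573 cells, and Ptgs1 was seen in 78.2% of cells with Ptges against 48.9% of those without. Intercalated-like cells followed at 186 CPM (176 to 197), and these cells were split. The cluster with Slc26a4, the pendrin exchanger of type B cells, had 288 CPM (273 to 305), while the cluster with Slc4a1, the basolateral exchanger of type A cells, had 13.2 CPM (9.12 to 18.4). Across intercalated-like cells, Ptges was seen in 80.2% of those with Slc26a4 and in 8.79% of those without. The share in podocyte-like cells was 0.371%.

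Ptgis was concentrated in Ren1/Acta2-led contractile and PEC-like cells, with 28.4 CPM in the Rgs5/Notch3-led cluster. Ren1/Acta2-led contractile cells had 613 CPM (583 to 644) and 77.7% of cells with a UMI, 72.9-fold the other cells. In monocytic-like cells of similar depth (median 5134 UMIs against 5275) 0.0901% had one. Within this cluster it was found in 81.9% of the 432 cells with Myh11 against 16.7% of those without, and in 79.8% of the 336 cells with Itga8 against 72.2% of those without. Endothelial-like cells, often named as a source of prostacyclin, had 3 Ptgis UMIs in 278 cells, 3.38 CPM (0.696 to 9.87). PEC-like cells had 94.8 CPM (89.5 to 100), which came mainly from 1 of their 3 clusters. The Tnc/Clstn2-led cluster had 371 CPM (348 to 395), the Tnc/Wnt16-led cluster 67.0 CPM (58.0 to 76.9) and the Gc/C3-led cluster 2.17 CPM. Acta2 was seen in 37.3% and Pdgfrb in 45.3% of the 464 cells of the Tnc/Clstn2-led cluster, with Myh11 in 2.16%.

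Ptgds, the lipocalin-type synthase, had the reverse order in the same clusters. It was 389 CPM (375 to 404) in the Gc/C3-led cluster, 80.5 CPM (70.0 to 92.1) in the Tnc/Clstn2-led cluster and 46.2 CPM (38.8 to 54.6) in the Tnc/Wnt16-led cluster. Over all PEC-like cells it was 243 CPM (234 to 251) in 32.0% of cells, 21.4-fold the other cells, and Ptgis was seen in 13.5% of PEC-like cells with Ptgds against 31.4% of those without. PTEC-like cells had 26.4 CPM (23.6 to 29.6) and podocyte-like cells 12.0 CPM (11.5 to 12.5).

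**Figure D2:**
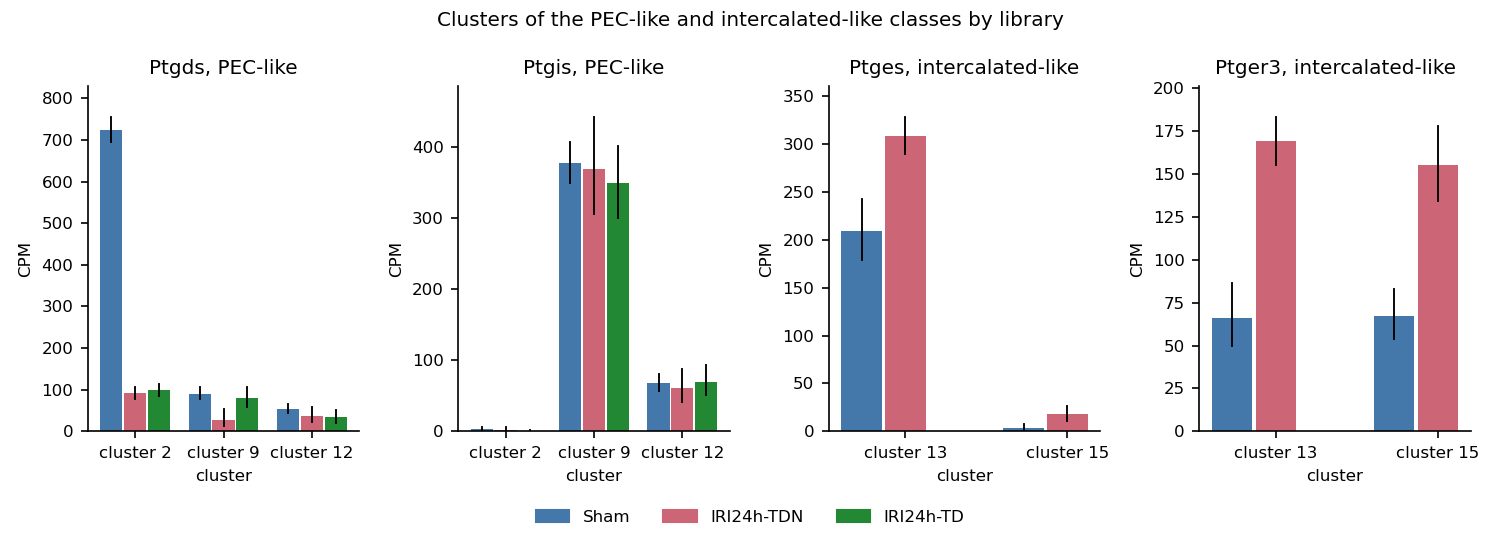
Bars give CPM (95% Poisson interval as lines) by library in the PEC-like clusters for Ptgds and Ptgis and in the intercalated-like clusters for Ptges and Ptger3. Cluster 2 is led by Gc/C3, cluster 9 by Tnc/Clstn2 and cluster 12 by Tnc/Wnt16, while cluster 13 holds the Slc26a4 cells and cluster 15 the Slc4a1 cells; Ptgds is highest in cluster 2 of Sham at 724 CPM and Ptgis in cluster 9 of each library.

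The 3 EP receptors differed in breadth. Ptger1, a calcium-coupled receptor, had 111 UMIs in all, and 63 of them were in connecting tubule and principal-like cells at 12.2 CPM (9.40 to 15.7), 61.5-fold the other cells. Ptger3, which lowers cyclic AMP, had 135 CPM (127 to 144) in intercalated-like cells and 91.5 CPM (83.8 to 99.7) in ascending limb-like cells, with 16.0 CPM (11.5 to 21.7) in Ren1/Acta2-led contractile cells. The Slc26a4 cluster had 148 CPM (137 to 160) and the Slc4a1 cluster 113 CPM (100 to 126), so that Ptger3 was high in both where Ptges was high in 1. In connecting tubule and principal-like cells, with 1 UMI in 573 cells, Ptger3 was at 0.194 CPM. Ptger4, which raises cyclic AMP, was the broadest: 291 CPM (278 to 305) in monocytic-like cells and 153 CPM (151 to 155) in podocyte-like cells, and between 46.3 and 103 CPM in fibroblast-like, connecting tubule and principal-like, ascending limb-like, PEC-like and intercalated-like cells. In the C1q-expressing monocytic-like cluster it was 350 CPM (334 to 367), and in the Lyz2/Chil3-led cluster 65.1 CPM (52.1 to 80.4). PTEC-like cells had 6.95 CPM (5.52 to 8.64).

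Over whole libraries the genes took different orders. Ptgds was 55.3 CPM in Sham, 9.92 CPM in IRI24h-TDN and 13.0 CPM in IRI24h-TD, and Ptgis was 29.1, 13.7 and 5.47 CPM. Ptgs1 was 17.6, 23.4 and 3.33 CPM, Ptgs2 was 9.34, 24.6 and 0.484 CPM, Ptges was 16.4, 32.0 and 1.56 CPM, and Ptger3 was 5.69, 13.6 and 0.560 CPM. All of these but Ptgds were lowest in the library of sorted tdT+ cells, in which podocyte-like cells numbered 9168 of 9689. Ptger4 had the opposite order, with 86.6, 133 and 161 CPM. Ptger1, with the fewest UMIs, was 0.845, 0.419 and 0.205 CPM. Because the libraries differ in their cell mixture, the comparisons below were made within a class.

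**Figure D3:**
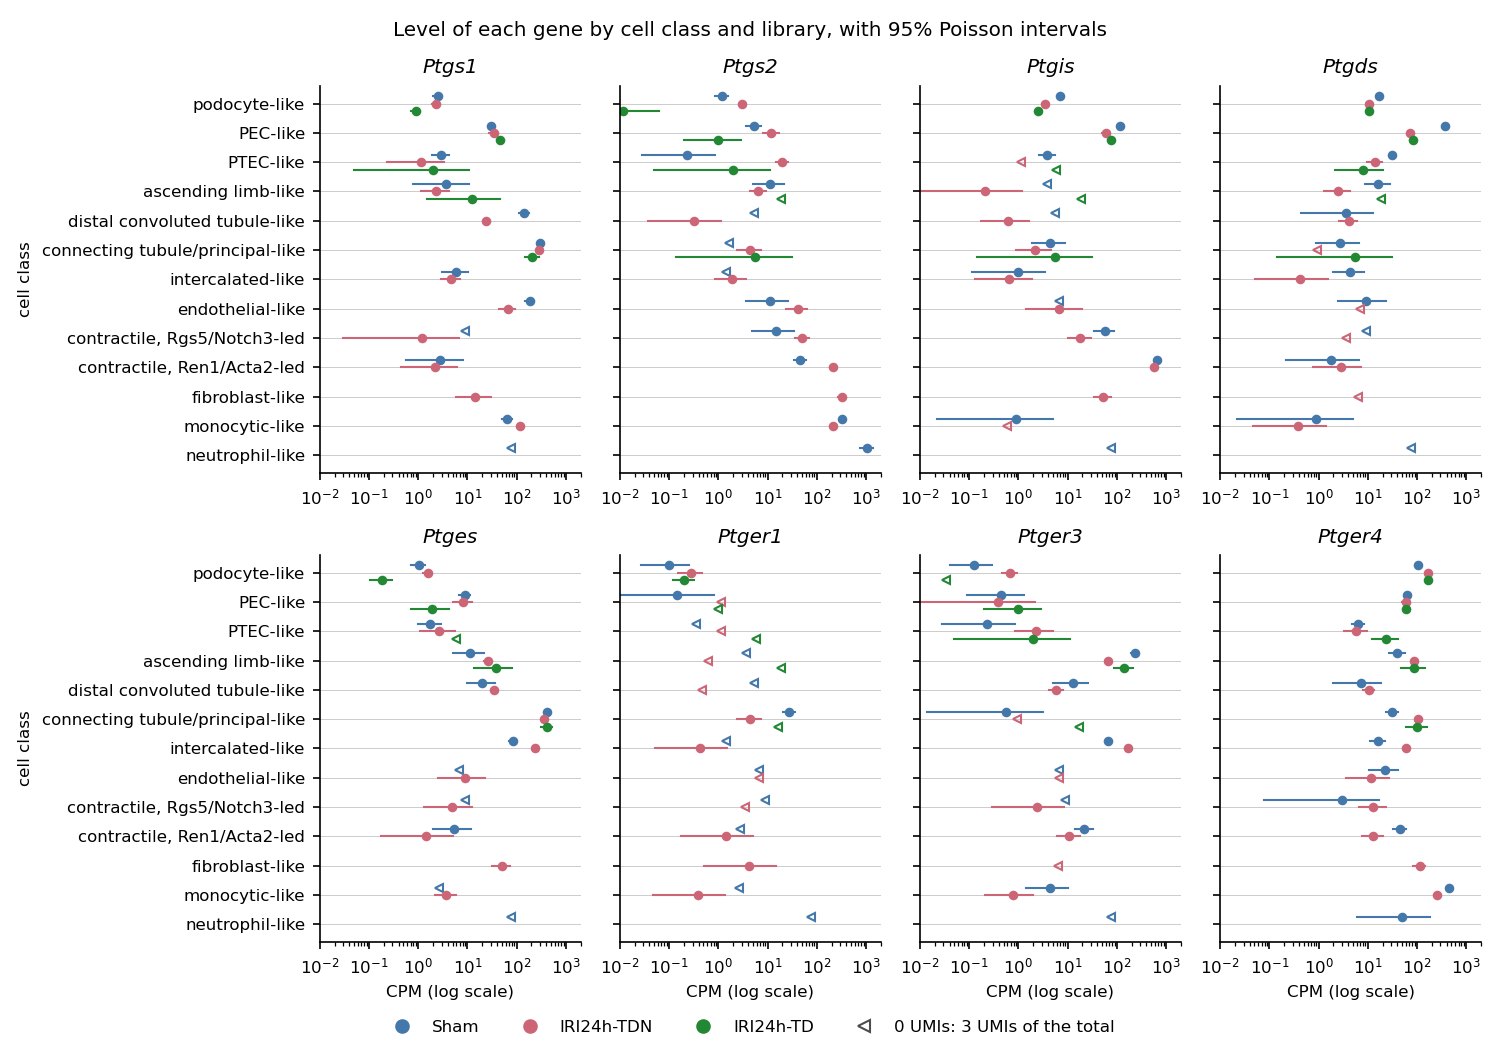
Level of each gene (x axis, CPM on a log scale, 95% Poisson interval as lines) by cell class and library, for classes with at least 20 cells in that library; open triangles stand at 3 UMIs of the total where no UMI was seen. Ptgds in PEC-like cells drops from 379 CPM in Sham to 72.9 CPM in IRI24h-TDN and 81.9 CPM in IRI24h-TD.

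To see how these genes stood 24 h after IRI, IRI24h-TDN was set against Sham within each class with at least 20 cells in both. A member was called when the CPM differed by at least 2-fold and the higher group had at least 10 UMIs. Of 50 pairs of a member and a class with enough UMIs, 16 were higher and 13 lower in IRI24h-TDN, with a median log2 ratio of -0.11. Over all genes, the same rule called 20.8% in PEC-like, 32.2% in PTEC-like, 22.2% in ascending limb-like, 19.6% in connecting tubule and principal-like, 21.8% in distal convoluted tubule-like, 20.8% in endothelial-like, 17.9% in intercalated-like, 18.4% in Rgs5/Notch3-led contractile, 26.5% in monocytic-like, 19.9% in podocyte-like and 16.0% in Ren1/Acta2-led contractile cells. The median log2 ratio of all genes tested lay between -0.10 and 0.14 in these classes except the monocytic-like class, where it was 0.33. With at least 50 UMIs in the higher group 15 pairs were called, and with every cell thinned to 2400 UMIs 19 were. The pairs tested and the share of all genes under these limits are not given, so these counts have no background.

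**Figure D4:**
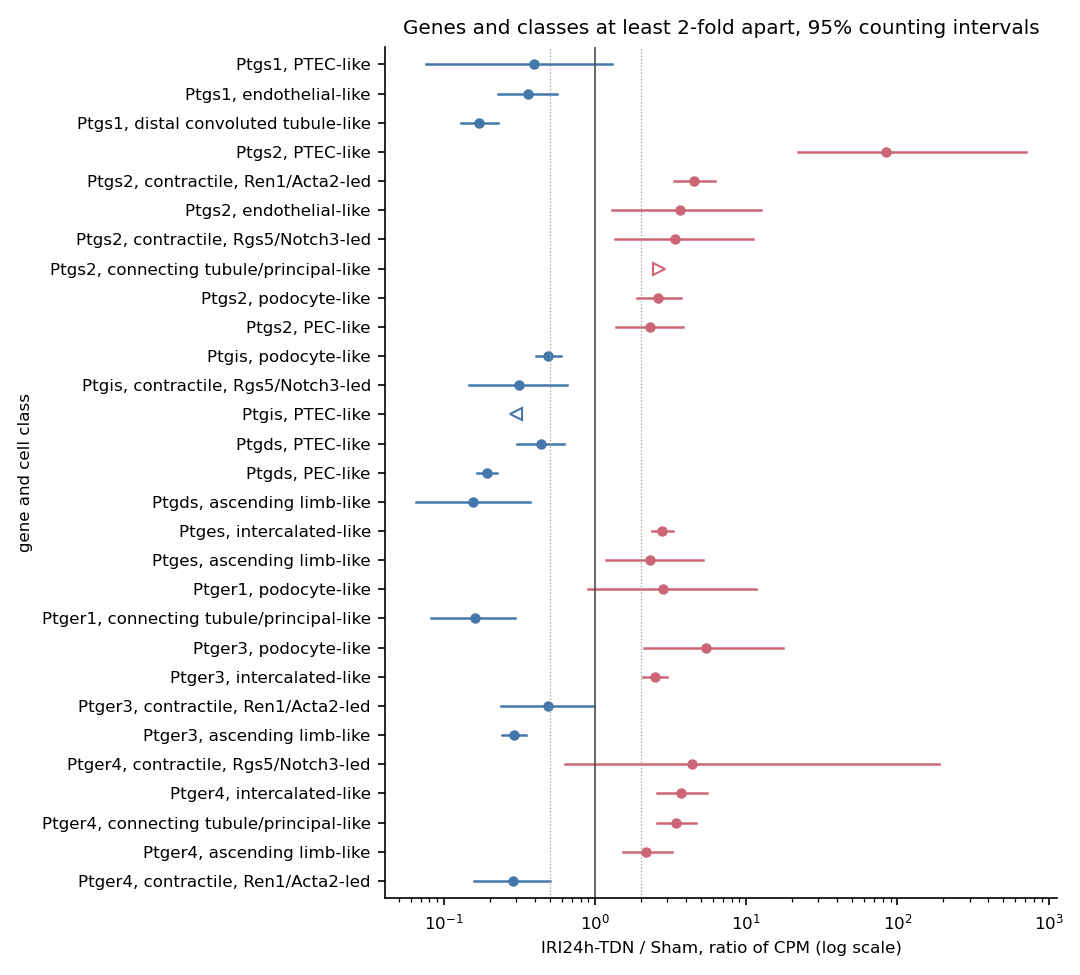
Ratio of IRI24h-TDN to Sham (log scale, 95% interval of the counts) for each called pair of a gene and a class; open triangles mark a bound where a group had no UMIs, and dotted lines mark 2-fold. Ptgs2 is on the higher side in each class where it was called, Ptgds on the lower side.

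Ptgs2 was called in 7 classes, each time higher in IRI24h-TDN. In Ren1/Acta2-led contractile cells it was 46.5 CPM (34.6 to 61.1) in Sham and 210 CPM (186 to 235) in IRI24h-TDN, a ratio of 4.51 (3.34 to 6.20). These UMIs lay in 9 Sham cells and 41 IRI24h-TDN cells, and without the cell with the most UMIs in each library the ratio was 7.48. IRI24h-TD had 9 such cells, too few to enter a comparison, at 462 CPM (312 to 659, counting error only). Ren1 was seen in 12 of the 53 cells with Ptgs2 in this cluster. The Rgs5/Notch3-led cluster had 15.1 and 51.1 CPM, a ratio of 3.39 (1.35 to 11.0) on 5 Sham UMIs from 1 cell. Endothelial-like cells had 11.3 and 40.9 CPM (ratio 3.62, 1.29 to 12.5; 0.750 with cells thinned to 2400 UMIs), and PEC-like cells 5.26 and 12.0 CPM (ratio 2.29, 1.37 to 3.80). Without the top cell of each library, the ratio in PEC-like cells was 1.88. Neutrophil markers in PEC-like cells, 0 of 6 detected in 25% of them, summed to 3.36 CPM in Sham and 65.5 CPM in IRI24h-TDN, and their part in the ratio was not tested.

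Some Ptgs2 calls rested on few cells. In PTEC-like cells 46 of 51 UMIs of IRI24h-TDN lay in 1 cell. The ratio there was 83.8 (22.0 to 710) and 16.6 without that cell, and 3 UMIs in PTEC-like cells came from the other libraries. In podocyte-like cells 64 of 165 UMIs lay in 1 cell, and the ratio of 2.62 (1.88 to 3.70) was 1.98 without the top cells. When the 5 podocyte-like clusters that carry markers of another cell type were left out, the podocyte ratio was 0.863, on the other side of 1, and without the cells with the top 6% of doublet scores it was 0.604. Connecting tubule and principal-like cells had 14 UMIs against 0, at least 2.63-fold higher in IRI24h-TDN. Monocytic-like cells were not called, at 330 CPM (297 to 365) in Sham and 212 CPM (200 to 225) in IRI24h-TDN. Their Lyz2/Chil3-led cluster had 1177 CPM in 14 Sham cells and 157 CPM in 185 IRI24h-TDN cells. In the unnamed cluster led by H2-Aa and Cd74, genes of antigen presentation, Ptgs2 was 61.3 CPM in Sham and 393 CPM in IRI24h-TDN, a ratio of 6.42 (4.59 to 9.15).

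Ptgds was lower in 3 classes. In PEC-like cells it was 379 CPM (365 to 394) in Sham, 72.9 CPM (62.8 to 84.1) in IRI24h-TDN and 81.9 CPM (72.2 to 92.7) in IRI24h-TD. This was 5.20-fold lower (4.48 to 6.06) in IRI24h-TDN than in Sham, and the IRI libraries did not differ beyond their intervals. Most of the difference lay in the Gc/C3-led cluster, 7.94-fold lower (6.76 to 9.37), from 724 to 91.2 CPM. The Tnc/Clstn2-led cluster was 3.26-fold lower (1.68 to 7.27), and the Tnc/Wnt16-led cluster was not called, at 53.2 and 36.7 CPM, the latter from 3 cells. Without the cell with the most UMIs in each library, the ratio in the Tnc/Clstn2-led cluster went from 0.306 to 0.126, and that in the Tnc/Wnt16-led cluster from 0.691 to 0.0924, past the 2-fold limit. The Gc/C3-led cluster held 325 of 844 PEC-like cells in Sham and 127 of 221 in IRI24h-TDN. In PTEC-like cells Ptgds was 2.27-fold lower (1.60 to 3.31), and the direction changed under 3 alternatives. Of the 36 UMIs in IRI24h-TDN 27 lay in 1 cell, and the difference was 6.92-fold without the top cells. The PTEC-like cells of IRI24h-TDN came mostly from the cluster with Slc34a1 and Havcr1, an injury gene of the proximal tubule (110 of 157 cells), which held 334 of 1053 in Sham. Within it Ptgds was 111 and 14.9 CPM, 7.42-fold lower (5.14 to 11.0). Ascending limb-like cells were at 16.2 and 2.53 CPM, 6.40-fold lower (2.69 to 15.4) on 13 and 12 UMIs. Podocyte-like cells were not called, at 16.9, 10.8 and 10.5 CPM in Sham, IRI24h-TDN and IRI24h-TD.

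Ptgs1 was called lower in distal convoluted tubule-like, endothelial-like and PTEC-like cells. In distal convoluted tubule-like cells it was 141 CPM (111 to 176) in 45 Sham cells and 24.2 CPM (20.5 to 28.3) in 427 IRI24h-TDN cells, 5.83-fold lower (4.38 to 7.71). Markers of connecting tubule and principal cells, the class with the highest Ptgs1, had 3 of 9 detected here and summed to 10522 CPM in Sham and 2721 CPM in IRI24h-TDN, and their part was not tested. Endothelial-like cells had 183 and 65.9 CPM, a ratio of 0.360 (0.227 to 0.556). The PTEC-like call, on 25 and 3 UMIs, had an interval that included 1 (0.774 to 13.1) and turned to a ratio of 1.54 without those doublet scores. In its highest class Ptgs1 was not called: connecting tubule and principal-like cells had 305 CPM (280 to 331), 279 CPM (261 to 298) and 207 CPM (145 to 285) in Sham, IRI24h-TDN and IRI24h-TD, the last in 23 cells. In monocytic-like cells it was 64.1 and 116 CPM, below the 2-fold limit, and in their C1q-expressing cluster it was 68.1 and 146 CPM, a ratio of 2.15 (1.68 to 2.78).

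Ptges was called higher in 2 classes. In intercalated-like cells it was 83.7 CPM (71.7 to 97.1) in Sham and 232 CPM (219 to 247) in IRI24h-TDN, a ratio of 2.78 (2.37 to 3.28). The Slc26a4 cluster held 56 of the 180 Sham cells and 221 of the 344 IRI24h-TDN cells, and within it the level was 209 and 309 CPM, which was not called. Within the Slc4a1 cluster it was 3.16 and 17.7 CPM on 4 and 22 UMIs, a ratio of 5.61 (1.91 to 22.4; 9.86 without the top cells). Ascending limb-like cells had 11.2 and 25.9 CPM (ratio 2.31, 1.18 to 5.18). As for Ptgs1, the level in connecting tubule and principal-like cells was not called, at 411, 367 and 407 CPM in Sham, IRI24h-TDN and IRI24h-TD.

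Ptgis was not called in its highest class, with 646 CPM (600 to 696) in Sham, 581 CPM (541 to 622) in IRI24h-TDN and 724 CPM (532 to 962) in 9 cells of IRI24h-TD. In PEC-like cells it was 117 CPM in Sham, 59.7 CPM in IRI24h-TDN and 75.1 CPM in IRI24h-TD. The difference of 1.96-fold (1.65 to 2.34) was just under the limit. Within the Tnc/Clstn2-led cluster, which held 319 of 844 cells in Sham and 48 of 221 in IRI24h-TDN, it was 378 and 369 CPM, a ratio of 0.978 (0.798 to 1.19). It was called lower in podocyte-like cells (7.15 and 3.50 CPM, 2.04-fold, 1.70 to 2.47), in the Rgs5/Notch3-led cluster (57.3 and 17.8 CPM, 3.21-fold, 1.55 to 6.79) and in PTEC-like cells (33 against 0 UMIs, at least 3.35-fold). In podocyte-like cells 463 of 699 UMIs came from 1 cluster of 491 cells, and within it the level was 123 and 94.9 CPM, a ratio of 0.770 (0.595 to 0.990). PEC markers scored second in this cluster.

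Among the receptors, Ptger1 was 27.3 CPM (20.2 to 36.1) in connecting tubule and principal-like cells of Sham and 4.41 CPM (2.41 to 7.39) in those of IRI24h-TDN, 6.20-fold lower (3.37 to 12.2) on 49 and 14 UMIs. No UMI was seen in the 23 such cells of IRI24h-TD, which allows up to 16.7 CPM. In podocyte-like cells it was called higher on 4 and 15 UMIs, with an interval that included 1 (0.890 to 11.6).

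Ptger3 was lower in ascending limb-like cells, at 229 CPM (197 to 265) in Sham and 66.6 CPM (59.5 to 74.4) in IRI24h-TDN, 3.44-fold (2.85 to 4.14). It was also lower in Ren1/Acta2-led contractile cells, 2.04-fold (1.03 to 4.18) on 24 and 15 UMIs. It was higher in intercalated-like cells, at 66.8 CPM (56.2 to 78.9) and 165 CPM (154 to 177), a ratio of 2.47 (2.06 to 2.98). Here both clusters showed it, with ratios of 2.54 (1.92 to 3.43) for Slc26a4 cells and 2.31 (1.78 to 3.01) for Slc4a1 cells. The call in podocyte-like cells (ratio 5.37, 2.10 to 17.5) rested on 5 and 36 UMIs, and 28 of the 36 came from a cluster that also carried ascending limb markers.

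Ptger4 was called higher in 3 classes of the distal nephron and in the Rgs5/Notch3-led cluster. It was 31.2 CPM (23.6 to 40.6) and 107 CPM (96.2 to 119) in connecting tubule and principal-like cells (ratio 3.44, 2.58 to 4.64), 15.9 and 58.9 CPM in intercalated-like cells (ratio 3.72, 2.58 to 5.50) and 39.9 and 86.9 CPM in ascending limb-like cells (ratio 2.18, 1.52 to 3.23, and 3.67 without the top cells). Distal convoluted tubule-like cells were not called, at 7.23 and 10.4 CPM on 4 and 66 UMIs (ratio 1.43, 0.534 to 5.42). Both intercalated-like clusters showed it, with ratios of 3.03 (1.88 to 5.20) and 3.06 (1.68 to 5.91). Podocyte-like cells held 86.1% of all Ptger4 UMIs. Podocyte markers in intercalated-like cells summed to 1437 CPM in Sham and 2242 CPM in IRI24h-TDN. They were lower in IRI24h-TDN in connecting tubule and principal-like (580 and 318 CPM) and ascending limb-like cells (604 and 270 CPM). Their part in the Ptger4 ratios was not tested. In Ren1/Acta2-led contractile cells Ptger4 was 3.47-fold lower (1.98 to 6.32), from 44.7 to 12.9 CPM. Markers of the mesangial list, 7 of 9 detected in these contractile cells, summed to 17868 CPM in Sham and 9598 CPM in IRI24h-TDN. Over the 3 libraries most of this was Rgs5 (10158 CPM), with 267 CPM for Gata3 and 391 CPM for Itga8. The part of these markers in the results for Ptger4 and Ptger3 was not tested. The call in the Rgs5/Notch3-led cluster rested on 1 and 11 UMIs, with an interval from 0.631 to 187, and turned to 0.205 with at most 20% mitochondrial UMIs. In its highest classes Ptger4 was not called. Monocytic-like cells had 457 CPM (418 to 498) in Sham and 256 CPM (242 to 270) in IRI24h-TDN, 1.79-fold lower. Their C1q-expressing cluster had 465 and 321 CPM, 1.45-fold lower (1.30 to 1.61). Their Lyz2/Chil3-led cluster had 325 and 50.4 CPM, and held 14 of 258 cells in Sham and 185 of 840 in IRI24h-TDN. Podocyte-like cells had 107 CPM (104 to 110), 164 CPM (161 to 168) and 168 CPM (165 to 170) in Sham, IRI24h-TDN and IRI24h-TD, a ratio of 1.54 between the first pair.

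IRI24h-TD was set against IRI24h-TDN to see how sorted tdT+ cells differed from the mixture at the same time after IRI. Of 25 pairs, 2 were called higher and 7 lower in IRI24h-TD. The rule called 6% of all genes in PEC-like, 13.4% in PTEC-like, 12.7% in ascending limb-like, 12.8% in connecting tubule and principal-like and 11.1% in podocyte-like cells. Over all genes most of these calls were lower too, except in PEC-like cells (384 higher, 308 lower). Higher and lower calls numbered 217 and 1406 in podocyte-like and 237 and 988 in PTEC-like cells. They numbered 183 and 778 in ascending limb-like and 207 and 773 in connecting tubule and principal-like cells. Podocyte-like cells of IRI24h-TD had 1 Ptgs2 UMI in 9168 cells against 165 UMIs in 5545, 267-fold lower (47.3 to 10627). Of the 165 UMIs, 71 and 80 came from clusters with 61 and 27 cells of IRI24h-TDN and 0 of IRI24h-TD, in which monocytic and smooth muscle markers scored second. In the main podocyte-like cluster Ptgs2 had 13 UMIs (0.258 CPM) in IRI24h-TDN and 1 UMI (0.0118 CPM) in IRI24h-TD, 22.0-fold lower (3.30 to 934). Ptges was 8.51-fold lower (4.95 to 15.6; 20.5-fold without the top cells) and Ptgs1 2.58-fold lower (1.93 to 3.47) in them, and Ptger3 had 0 against 36 UMIs, at least 19.5-fold lower. In the main cluster Ptges was 12.7-fold lower (4.47 to 49.5) and Ptgs1 was not called (ratio 0.783, 0.501 to 1.23). The cluster that held 28 of the 36 Ptger3 UMIs had 90 cells of IRI24h-TDN and 31 of IRI24h-TD. In podocyte-like cells as a class, no marker of another list named here reached detection in 25% of cells, and the summed levels in IRI24h-TDN and IRI24h-TD were 12.2 and 0.0342 CPM for neutrophil markers, 91.3 and 10.2 CPM for smooth muscle and renin markers, 41.0 and 1.52 CPM for ascending limb markers, 72.6 and 10.8 CPM for connecting tubule and principal markers and 10.9 and 1.21 CPM for intercalated markers. Monocytic markers moved the same way, from 162 to 15 CPM. Their part in these differences was not tested. Ptger4, Ptgds and Ptgis were not called in podocyte-like cells, with ratios of 1.02 (0.994 to 1.05), 0.971 (0.874 to 1.08) and 0.725 (0.594 to 0.884). In PEC-like cells Ptgs2 (31 and 3 UMIs) was 12.4-fold lower (3.86 to 63.2) and Ptges (21 and 6 UMIs) 4.19-fold lower (1.64 to 12.7), while Ptgds, Ptgis and Ptger4 were not called. In these cells markers of neutrophils summed to 65.5 and 0.972 CPM, of intercalated cells to 44.6 and 4.86 CPM and of connecting tubule and principal cells to 66.3 and 16.2 CPM in IRI24h-TDN and IRI24h-TD, and their part was not tested. Other calls came from classes of under 50 cells in IRI24h-TD: Ptgs2 lower and Ptger4 higher in PTEC-like cells, and Ptger3 higher in ascending limb-like cells, where the ratio of 2.08 was 1.17 without the cell with the most UMIs in each library.

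Of 23 other genes of the pathway that were listed, 21 were in the tables. Set against Sham, 23 of 138 pairs were higher in IRI24h-TDN and 12 lower, with a median log2 ratio of -0.05. By class, the same rule called 16.0% to 32.2% of all genes. In IRI24h-TD against IRI24h-TDN 0 of 59 were higher and 9 lower. There the rule called 6% to 13.4% of all genes by class, mostly lower in each class but the PEC-like. Among substrate-releasing enzymes, the cytosolic phospholipase Pla2g4a was 60.8 CPM (54.2 to 67.9) in connecting tubule and principal-like cells, the class with the highest Ptgs1 and Ptges levels. It was 114 CPM (106 to 123) in monocytic-like cells. Monocytic-like cells also had the highest levels of the haematopoietic prostaglandin D synthase Hpgds (168 CPM, 158 to 179), the thromboxane synthase Tbxas1 (36.3 CPM, 31.8 to 41.3) and the prostaglandin-degrading enzyme Hpgd (140 CPM, 131 to 149). Hpgd was 314 CPM in these cells in Sham and 102 CPM in IRI24h-TDN, 3.08-fold lower (2.68 to 3.53), and it was also lower in PEC-like and endothelial-like cells. Pla2g5 was highest in PEC-like cells, the class with the highest Ptgds level, at 19.5 CPM (17.1 to 22.1).

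Among transporters and other receptors, the prostaglandin transporter Slco2a1 was 519 CPM (515 to 522) in podocyte-like cells, with 272 CPM in Sham and 582 CPM in IRI24h-TDN, a ratio of 2.14 (2.09 to 2.18). Slco2a1 was also called higher in PEC-like, PTEC-like, endothelial-like, intercalated-like and distal convoluted tubule-like cells, the last on 1 Sham UMI. In intercalated-like cells podocyte markers, 7 of 10 detected, summed to 1437 CPM in Sham and 2242 CPM in IRI24h-TDN, where Slco2a1 was 10.6 and 33.2 CPM. The same markers went the other way in PEC-like cells (1216 and 488 CPM) and PTEC-like cells (710 and 393 CPM). Their part in the Slco2a1 calls was not tested. The prostaglandin F receptor Ptgfr was seen in 95.4% of distal convoluted tubule-like cells at 932 CPM (910 to 955), with 408 and 983 CPM in Sham and IRI24h-TDN, a ratio of 2.41 (2.11 to 2.76). These were 45 Sham and 427 IRI24h-TDN cells, in which connecting tubule and principal markers summed to 10522 and 2721 CPM. Ptgfr was 131 CPM in connecting tubule and principal-like cells, and the part of these markers in the ratio was not tested. The prostacyclin receptor Ptgir was 39.1 CPM (31.8 to 47.5) in Ren1/Acta2-led cells, the class with the highest Ptgis level, and 61.8 CPM (48.5 to 77.6) in Rgs5/Notch3-led cells. The thromboxane receptor Tbxa2r was 84.4 CPM (66.4 to 106) in endothelial-like cells, 3.10-fold lower (1.79 to 5.60) in IRI24h-TDN. Ptger2, the remaining EP receptor, had 28 UMIs in all cells.

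Genes of like pattern are given as a description, with no p, since all classes come from the same libraries. For each gene up to 3 with the most similar pattern over the 13 classes were taken by Pearson correlation of log2(CPM + 10). They were Osr2 (r = 0.974), Cldn1 (0.973) and Pla2g5 (0.972) for Ptgds, and Angpt4 (0.963), Ptn (0.941) and Epha7 (0.941) for Ptgis. For Ptges they were Rab15 (0.976) and Lix1 (0.918), and for Ptgs1 AC113595.1 (0.907), D130040H23Rik (0.870) and Lin9 (0.867). Ptgs2 was followed by Chst12 (0.947), Runx2 (0.936) and Rasa3 (0.925). For the receptors they were Gm29811 (0.943) and Col26a1 (0.941) beside Ptger1, Gm11789 (0.967), Tshr (0.940) and Bdkrb2 (0.936) beside Ptger3, and Mcmbp (0.810), Stil (0.790) and Inip (0.778) beside Ptger4. A like pattern is not a like level. D130040H23Rik, AC113595.1 and Stil reached at most 3.69, 9.71 and 3.14 CPM in a class, below the 10 added to each CPM. Of the 24 genes found by this rule, 11 were named again with log2(CPM + 1).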

How the data were processed

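For each of 3 libraries, the authors deposited raw UMI counts by gene and barcode, with no normalization; the submitters' notes name mm10, CASAVA 1.8, UMI-tools and Seurat, and the counting settings are not given in the sources used here. Total UMIs were 69980443 (Sham), 92355554 (IRI24h-TDN) and 93470709 (IRI24h-TD).

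Barcodes with under 200 genes or over 50% mitochondrial UMIs were left out. Cells were clustered on 2000 variable genes (the 8 genes and the pathway list excluded) with 30 principal components, a numpy version of Harmony (theta 2), 15 neighbours and leidenalg 0.10.2 at resolution 1, and named where the score over a marker list was at least 0.3, at least 3 markers were detected in 25% of cells and at least 1 was among the top 10 genes by fold. Doublets were kept, and 1605 cells with the top 6% of scores were left out as an alternative. CPM is 1000000 times the gene's UMIs over all UMIs of the group. Intervals are exact Poisson for levels, Clopper-Pearson for shares and conditional binomial for ratios, all at 95%; for groups without UMIs a floor of 3 counts was used. Calls need 2-fold (4-fold against other cells), 10 UMIs in the higher group and 20 cells. Classes of under 20 cells entered no comparison. The text names every member, the pathway list and the 3 most similar genes with at least 100 UMIs, apart from some items that are not reported here. The members, gene lists and rules were chosen with earlier results of these data known. Python 3.11.15, numpy 2.4.6, scipy 1.17.1, pandas 2.3.3, and edgeR 4.0.16 in R 4.3.3 for TMM scaling were used. Alternatives varied cell filters, doublets, Harmony, resolution, variable genes, thinning, scaling, limits and single libraries.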

Additional observations from a re-analysis of the deposited data

Results flagged for a closer look

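The ratio of IRI24h-TDN to Sham ran in opposite directions between cell classes for a pair of receptors, with 1 library per condition and no test of the difference. For Ptger3 it was 0.291 in ascending limb-like and 0.491 in Ren1/Acta2-led contractile cells, against 2.47 in intercalated-like and 5.37 in podocyte-like cells, the last on 5 and 36 UMIs, 28 of them from a cluster that also carried ascending limb markers. For Ptger4 it was 2.18 in ascending limb-like, 3.44 in connecting tubule and principal-like and 3.72 in intercalated-like cells, against 0.288 in Ren1/Acta2-led contractile cells. Podocyte markers were also higher in the intercalated-like cells of IRI24h-TDN, but lower in the ascending limb-like and connecting tubule and principal-like cells. Their part was not tested.

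The 3248 barcodes left out by the cell filter also held UMIs of 7 of the 8 genes, above the limit that a count of 0 allows. Their levels were 3.14 CPM for Ptgs1, 1.26 CPM for Ptgs2, 0.628 CPM for Ptgis, 2.72 CPM for Ptgds, 9.62 CPM for Ptges, 5.54 CPM for Ptger3 and 7.01 CPM for Ptger4. In kept cells the levels were 14.3, 11.5, 14.7, 23.1, 16.4, 6.60 and 131 CPM in the same order, so that Ptger3 was nearest to its level in kept cells and Ptgis and Ptger4 farthest.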

How the results depend on the processing

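With 1 library per condition, the precision of every value is counting error alone, and levels in classes of under 50 cells rest on few UMIs. No paired analysis was possible because each condition has 1 library. Of the alternative values for the main levels, shares and counts, 176 stayed within their interval or within 1.5 times and 65 moved; for single ratios 354 did, 50 moved and 9 changed side.

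Ratios that changed side were those of Ptgds in PTEC-like cells (3.24 with at least 500 genes per cell, 2.41 at resolution 2, 1.21 thinned), Ptger4 in the class named from mesangial markers (0.205 with at most 20% mitochondrial UMIs, 0.276 at resolution 2), Ptgs2 in endothelial-like cells (0.750 thinned), and Ptgs1 in PTEC-like (1.54) and Ptgs2 in podocyte-like cells (0.604) without the top 6% of doublet scores. Leaving out podocyte-like clusters with markers of another list (chosen after seeing the data, as was leaving out the cell with the most UMIs) gave 0.863 for Ptgs2. The causes were not tested.

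Thinned, 19 pairs of a member and a class were called in IRI24h-TDN against Sham and 4 in IRI24h-TD against IRI24h-TDN. With at least 50 UMIs, 15 and 4 were. The share of all genes under these limits is not given. For genes with like patterns, 11 and 8 of 24 were named again with log2(CPM + 1) and with at least 1000 UMIs.

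In connecting tubule and principal-like cells, Ptgs1 (CPM) was 264 with libraries weighted equally, 316 with at most 20% mitochondrial UMIs, 270 at resolution 0.5 and 353 without mitochondrial, ribosomal and haemoglobin UMIs, and its share (percent) was 81.5, 66.8 and 44.4 (mitochondrial limit, resolution 0.5, thinned). Ptges there was 414, 355, 351 and 474 CPM (mitochondrial limit, no Harmony, resolution 0.5, without those UMIs), with shares of 85.8, 80.3, 73.0, 71.5 and 50.9 (the same first limit, doublets left out, no Harmony, resolution 0.5, thinned). The thinned share of Ptger1 was 1.69. In Ren1/Acta2-led contractile cells Ptgis was 655, 654, 687 and 702 CPM (mitochondrial limit, doublets left out, resolution 2, without those UMIs), with shares of 82.2, 87.5 and 62.8 (doublets left out, resolution 2, thinned). In PEC-like cells Ptgds was 178, 229, 233, 255 and 272 CPM (weighted, mitochondrial limit, doublets left out, no Harmony, without those UMIs), and 19.5% thinned. In intercalated-like cells Ptger3 was 116, 163 and 171 CPM (weighted, mitochondrial limit, without those UMIs), with shares of 65.3 (mitochondrial limit) and 23.4 (thinned). In monocytic-like cells Ptger4 was 356, 258, 258 and 316 CPM (weighted, no Harmony, resolution 2, without those UMIs), and 38.2% thinned.

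Leaving out each library in turn gave 77.8 to 295 CPM and 22.4 to 34.5% for Ptgds in PEC-like cells (lowest without Sham), 4.17 to 24.8 CPM and 3.51 to 11.8% for Ptger1 (lowest without Sham, highest without IRI24h-TDN) and 369 to 411 CPM and 72.4 to 78.7% for Ptges in connecting tubule and principal-like cells, 71.8 to 164 CPM and 40.6 to 64.0% for Ptger3 in intercalated-like cells (lowest without IRI24h-TDN), 255 to 445 CPM for Ptger4 in monocytic-like cells (highest without IRI24h-TDN), 587 to 651 CPM for Ptgis in Ren1/Acta2-led contractile cells, and a share of 23.1 to 52.4% for Ptgs2 in neutrophil-like cells (lowest without Sham). In PTEC-like cells 9 ratios could not be given at 500 genes, at resolution 2 or thinned.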
